A study of Mus musculus with 8 samples.

Results

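The genes described here include the 5 subunits of the transcription factor NF-kB (Nfkb1, Nfkb2, Rel, Rela and Relb). The others are its inhibitor Nfkbia, the atypical IkB gene Nfkbiz, the feedback enzyme gene Tnfaip3, and the Toll-like receptor signaling genes Myd88 and Irak4. All of these genes were chosen by gene name, and all 10 of the 10 names matched 1 row each among 54532 genes of the count table. The choice was made with earlier results of these data known. All 10 passed the filter on low counts, which kept 18511 genes.

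Bulk RNA-seq was performed on 8 subcutaneous tumors grown from 4T1, a mouse TNBC cell line that in the syngeneic model of the study carried firefly luciferase (4T1-FLuc). The hosts were immunocompetent female BALB/cJ mice, 6 weeks old at injection. In the treated group, 4 mice received mAb-DXd/IMQ, a humanized anti-CD276 mAb bearing the TOP1 inhibitor DXd and the imidazoquinoline IMQ, a TLR7/8 agonist, at 16 mg/kg intravenously every 4 days for 5 courses. In the control group, 4 mice received saline by sample title, while the treatment label of the same samples reads PBS control. Tumors were collected at the study endpoint, each group holds 1 dose and 1 time point, and the tumors contain mouse host cells as well as 4T1 cells. Total counts were between 45019927 and 69582375 per tumor in the saline group and between 34591912 and 51625237 in the mAb-DXd/IMQ group (two-sided exact permutation test, p = 0.171). Levels are given in CPM, and 3 counts, taken as the floor for counting error alone, lay between 0.0431 and 0.0867 CPM depending on the tumor.

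NF-kB dimers are kept in the cytoplasm by IkB proteins and are set free when the IKK complex marks IkB for degradation, after signals from Toll-like receptors, interleukin-1 receptors or TNF family receptors. TLR7 and TLR8 signal through the adaptor MyD88 and the kinase IRAK4, and TLR7/8 agonists are used to start this route in immune cells. NF-kB switches on its own inhibitors, among them IkB alpha and the ubiquitin-editing enzyme encoded by Tnfaip3, so transcripts of inhibitors and of inflammatory target genes are often read as traces of its activity.

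The comparison asked which of these transcripts differed between mAb-DXd/IMQ and saline tumors. All 5 subunit genes had a lower mean in mAb-DXd/IMQ tumors, by 0.21 to 0.48 on the log2 scale. Irak4 was lower too, at a log2 fold change of -0.23. Among all 18511 tested genes, 8768 had a negative log2 fold change and 9743 a positive one. Tnfaip3 had a higher mean, and Nfkbia, Nfkbiz and Myd88 had nearly equal means. None of these differences passed the thresholds used across the whole table, an edgeR FDR under 0.05 with an absolute log2 fold change above 0.58. The count was 0 of 10 members, against 1.06% of all tested genes (197 of 18511) in either direction, 0.519% lower and 0.546% higher. At an unadjusted p under 0.05 in the edgeR fit, 4 members were lower (Nfkb1, Nfkb2, Rela and Relb) and 0 higher, against 9.79% of tested genes lower and 9.13% higher. With both thresholds kept, DESeq2 and limma-voom also called 0 members, against 4.25% and 0.94% of tested genes. At an unadjusted p under 0.05 each had the same number of members lower, 4, against 10.5% of tested genes for DESeq2 and 9.92% for limma-voom.

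Nfkb1 encodes the precursor of the DNA-binding partner in the classical NF-kB dimer. It stood at 283, 202, 211 and 197 TMM-normalized CPM in saline tumors 1 to 4 and at 160.0, 162, 161 and 156 CPM in mAb-DXd/IMQ tumors 1 to 4. The groups did not overlap, the mAb-DXd/IMQ tumors lay within a narrow band, and saline tumor 1 was far above the other saline tumors. The means were 223 ± 40.4 CPM and 159.9 ± 2.54 CPM (SD, n = 4 each), a log2 fold change of -0.48 (SE 0.13, 95% interval -0.76 to -0.20, adjusted p = 0.0812, edgeR). Without saline tumor 1, the log2 fold change was -0.35 (adjusted p = 0.12, edgeR).

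Rela encodes the subunit that carries the main transactivation domain of that dimer. Its level was 123, 125, 126 and 118 CPM in saline tumors 1 to 4 and 92.8, 112, 94.2 and 91.0 CPM in mAb-DXd/IMQ tumors 1 to 4. Again the groups did not overlap, and the highest mAb-DXd/IMQ value was that of tumor 2. Its mean was lower by a log2 fold change of -0.33 (SE 0.10, 95% interval -0.55 to -0.11, adjusted p = 0.111, edgeR).

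Relb, the partner subunit of the alternative NF-kB route, was counted at 47.9, 40.9, 44.2 and 42.6 CPM in saline tumors 1 to 4, and at 34.6, 34.0, 35.0 and 37.4 CPM in mAb-DXd/IMQ tumors 1 to 4. Every mAb-DXd/IMQ tumor was below every saline tumor. For Relb this gave a log2 fold change of -0.32 (SE 0.096, 95% interval -0.53 to -0.10, adjusted p = 0.116, edgeR). Nfkb2, whose product is processed in the same route, had 219.7, 173, 205 and 185 CPM in saline tumors 1 to 4 and 174, 161, 162 and 156 CPM in mAb-DXd/IMQ tumors 1 to 4. Here mAb-DXd/IMQ tumor 1 and saline tumor 2 overlapped by a small margin, and the log2 fold change was -0.26 (SE 0.11, adjusted p = 0.225, edgeR).

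Rel, the subunit best known from lymphocytes, was the least counted of the 5. It had 19.6, 26.8, 23.3 and 18.6 CPM in saline tumors 1 to 4 and 14.5, 20.9, 20.9 and 20.2 CPM in mAb-DXd/IMQ tumors 1 to 4. The groups overlapped, and mAb-DXd/IMQ tumor 1 was the only tumor of its group below the saline range. Rel had a log2 fold change of -0.21, with a 95% interval from -0.57 to 0.16 (adjusted p = 0.537, edgeR), and without mAb-DXd/IMQ tumor 1 it was -0.096.

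Groups that did not overlap, with the lower values in mAb-DXd/IMQ tumors, were thus found for 3 of the 10 members (Nfkb1, Rela and Relb), against 7.1% of all tested genes. The reverse order was found for 0 members, against 5.97% of tested genes. Nfkb1, Rela and Relb did not overlap under any of the 3 other scalings tried, and Nfkb2 and Irak4 ceased to overlap under 2 of those 3. This made 5 of 10 members, against 7.89% of tested genes with upper quartile factors and 7.54% with DESeq2 size factors. The 5 subunits had a median log2 fold change of -0.32, the 10 members a median of -0.22, and all tested genes a median of 0.022. Each of the 5 was lower under the 3 other scalings too, where the median of the subunits lay between -0.32 and -0.27.

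DESeq2's Wald test gave adjusted p of 0.0168 for Nfkb1, 0.0384 for Rela and 0.0469 for Relb, at log2 fold changes of -0.49, -0.34 and -0.32. Without a fold change limit, a reading chosen after the data were seen, DESeq2 therefore counted 3 members as lower, against 4.15% of tested genes. Over alternatives, the adjusted p was between 0.0168 and 0.218 for Nfkb1, between 0.0384 and 0.243 for Rela and between 0.0469 and 0.259 for Relb. The 95% intervals of Rela and Relb in the edgeR fit lay wholly inside the limit of 0.58, and that of Nfkb1 reached beyond it.

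**Figure D1:**
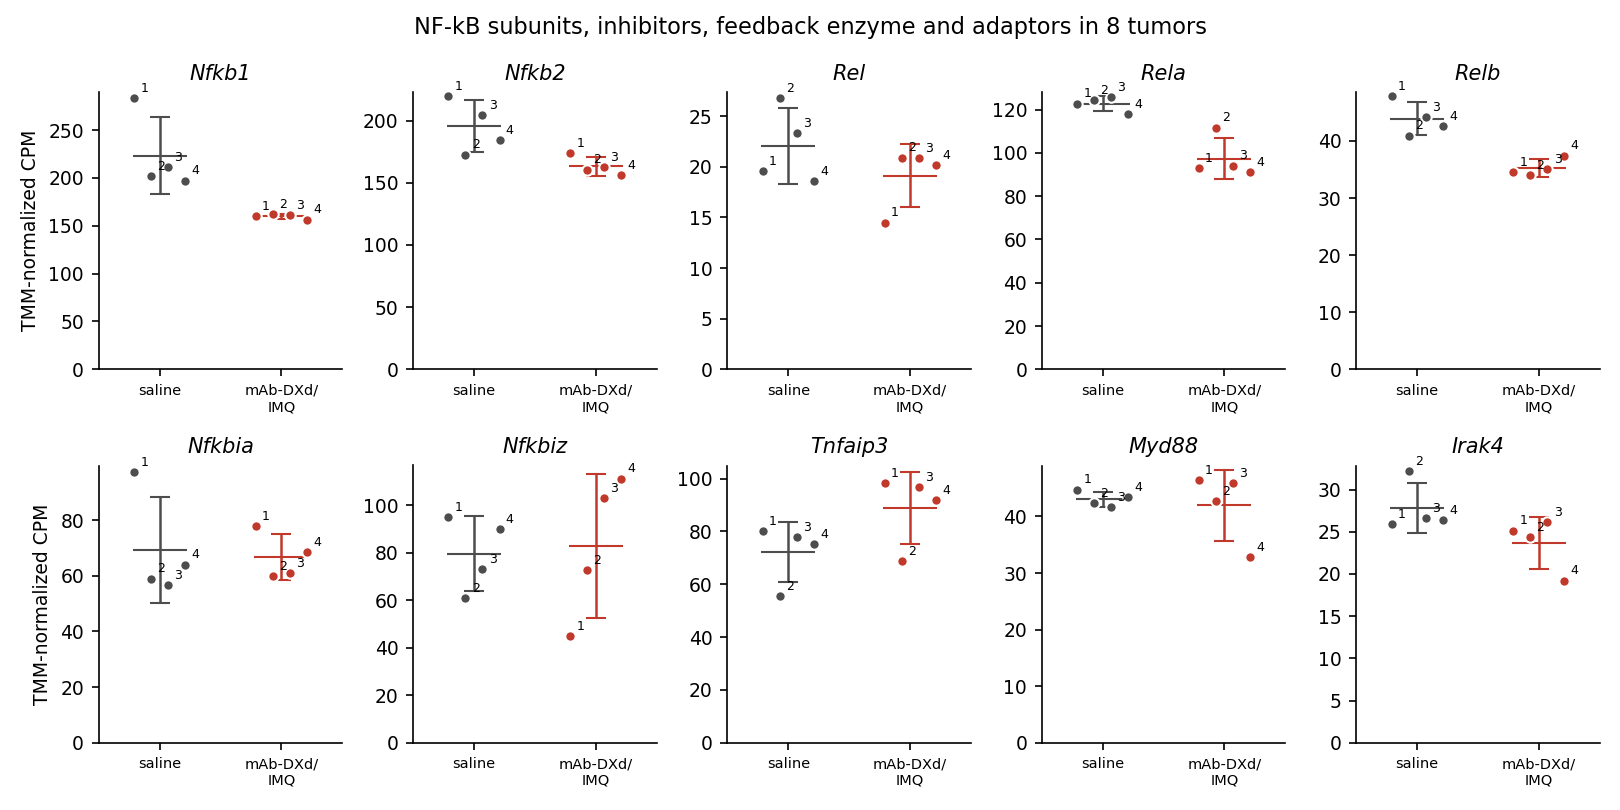
TMM-normalized CPM of the 10 genes in 4 saline tumors (grey) and 4 mAb-DXd/IMQ tumors (red), with the tumor's number beside each point and the mean ± SD as bars. The mAb-DXd/IMQ tumors lie below all saline tumors for Nfkb1, Rela and Relb, and the groups overlap for the other 7 genes.

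Nfkbia encodes IkB alpha, the inhibitor that NF-kB itself induces within a short time of activation. It was counted at 97.3, 58.9, 56.7 and 64.0 CPM in saline tumors 1 to 4, and at 77.8, 59.9, 61.0 and 68.4 CPM in mAb-DXd/IMQ tumors 1 to 4. Tumor 1 was the highest in both groups, and the groups overlapped throughout. The log2 fold change was -0.052 (95% interval -0.43 to 0.33, adjusted p = 0.91, edgeR), and it was 0.15 without saline tumor 1.

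Nfkbiz encodes an atypical nuclear IkB protein that helps a subset of target genes to be transcribed. Its values were 95.004, 61.0, 73.0 and 89.9 CPM in saline tumors 1 to 4 and 44.8, 72.9, 103 and 111 CPM in mAb-DXd/IMQ tumors 1 to 4. It varied most of all members, with an SD of 0.44 of log2 CPM over the 8 tumors, and both the lowest and the highest tumor were in the mAb-DXd/IMQ group. The log2 fold change was 0.058 (SE 0.25, adjusted p = 0.932, edgeR), and its sign turned in 4 of 18 other fits.

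Tnfaip3 encodes a ubiquitin-editing enzyme that shuts off signaling upstream of IKK. It stood at 80.2, 55.4, 77.8 and 75.2 CPM in saline tumors 1 to 4 and at 98.2, 68.8, 96.8 and 91.8 CPM in mAb-DXd/IMQ tumors 1 to 4. In both groups tumor 2 was the lowest, and mAb-DXd/IMQ tumor 2 was the only one of its group within the saline range. The log2 fold change was 0.30 (SE 0.15, 95% interval -0.028 to 0.63, adjusted p = 0.304, edgeR), positive in 18 of 18 other fits, past the thresholds in 0 of them, and 0.19 without saline tumor 2.

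Because Tnfaip3 and the subunits had opposite signs, their ratio within each tumor was taken from the raw counts, which removes the scaling between tumors but not differences in gene length. This ratio was chosen after the values were seen and was not tested. On the log2 scale, the ratio of Tnfaip3 to Nfkb1 counts was -1.82, -1.86, -1.44 and -1.39 in saline tumors 1 to 4 and -0.70, -1.24, -0.73 and -0.77 in mAb-DXd/IMQ tumors 1 to 4. All mAb-DXd/IMQ tumors had a higher ratio than every saline tumor, with a difference of means of 0.77. The ratio of Nfkb2 to Nfkb1 counts also separated the groups, at -0.37, -0.22, -0.046 and -0.096 in saline tumors 1 to 4 and 0.12, -0.016, 0.013 and -0.00026 in mAb-DXd/IMQ tumors 1 to 4. Separation of raw ratios was thus not particular to Tnfaip3. With the length correction given below, Nfkb2 and Nfkb1 had closer log2 fold changes, -0.31 and -0.36, against -0.26 and -0.48 without it. This holds for the deposited lengths only, 3289 bases for Nfkb2 and 12061 for Nfkb1. Their longest annotated transcripts have 3846 and 4149 bases. The log2 fold change of Tnfaip3 with this correction was 0.38. For the ratio of Tnfaip3 to Rela counts the means were -0.78 ± 0.26 and -0.14 ± 0.37 (SD, n = 4 each), and the groups overlapped. For Relb over Rela they were -1.49 ± 0.10 and -1.46 ± 0.18 (SD, n = 4 each), a difference of 0.023 that was smaller than the spread within either group.

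Myd88 encodes the adaptor shared by most Toll-like receptors and the interleukin-1 receptor family. Its counts came to 44.7, 42.4, 41.7 and 43.4 CPM in saline tumors 1 to 4 and 46.4, 42.7, 45.9 and 32.8 CPM in mAb-DXd/IMQ tumors 1 to 4. The mAb-DXd/IMQ tumors lay on both sides of the saline range, with tumor 4 alone below it. The log2 fold change was -0.037 (95% interval -0.30 to 0.23, adjusted p = 0.906, edgeR), 0.0081 with upper quartile factors and 0.070 without mAb-DXd/IMQ tumor 4.

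Irak4 encodes the first kinase recruited to MyD88. It had 25.9, 32.2, 26.6 and 26.4 CPM in saline tumors 1 to 4 and 25.1, 24.3, 26.1 and 19.2 CPM in mAb-DXd/IMQ tumors 1 to 4. Saline tumor 2 stood above the other tumors and mAb-DXd/IMQ tumor 4 below them, and the remaining 6 were close together, with a slight overlap of the groups. Irak4 had a log2 fold change of -0.23 (SE 0.13, 95% interval -0.52 to 0.062, adjusted p = 0.381, edgeR), which was -0.15 without saline tumor 2 and -0.13 without mAb-DXd/IMQ tumor 4.

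**Figure D2:**
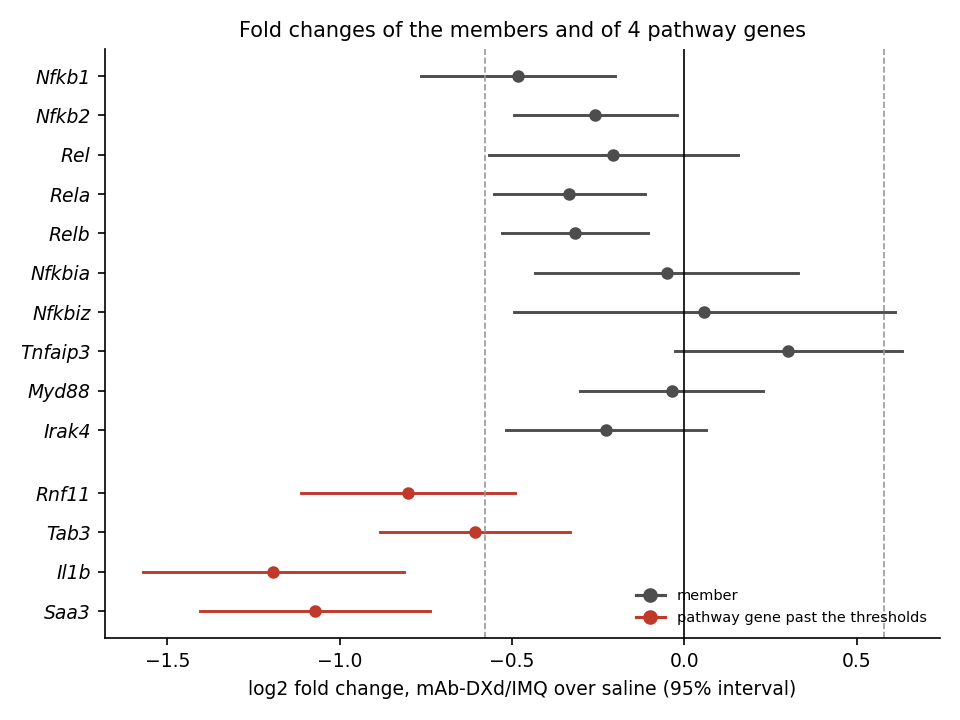
Log2 fold change of mAb-DXd/IMQ over saline tumors with its 95% interval from edgeR, for the 10 members (grey) and for the 4 pathway genes past the thresholds (red), with dashed lines at the fold change limit of 0.58 in each direction. The intervals of Nfkb1, Nfkb2, Rela and Relb lie below 0, that of Tnfaip3 reaches from -0.028 to 0.63, and those of the other 5 members span 0.

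Levels of different genes were compared only per gene length, as TPM computed from the counts and the deposited gene lengths. The order depends on these lengths. They are 12061 bases for Nfkb1 and 3289 for Nfkb2, while the longest annotated transcripts have 4149 and 3846 bases. The place of Nfkb1 relative to Nfkb2 therefore holds for the deposited lengths only. In saline tumors Nfkb2 was the most abundant at 169 ± 21.6 TPM, followed by Rela at 129 ± 4.69 TPM and Nfkbia at 123 ± 37.1 TPM (SD, n = 4 each). Nfkbia overlapped both Rela and Nfkb2 in range, while Nfkb2 lay above Rela and Nfkbia above the next gene. Nfkb1, Myd88, Nfkbiz, Relb and Tnfaip3 formed a middle range from 52.9 ± 11.0 TPM for Nfkb1 down to 28.5 ± 4.85 TPM for Tnfaip3, in which each gene overlapped the next. Irak4 at 15.7 ± 1.52 TPM and Rel at 8.40 ± 1.33 TPM were the lowest and were separate from their neighbors in the order (SD, n = 4 each). In mAb-DXd/IMQ tumors Nfkb2 was again first at 139 ± 11.2 TPM and Rel last at 7.28 ± 1.72 TPM (SD, n = 4 each). Nfkb1 was 4 in the saline order and 6 in the mAb-DXd/IMQ order, at 37.3 ± 3.81 TPM, where its range overlapped those of Myd88 before it and Tnfaip3 after it.

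**Figure D3:**
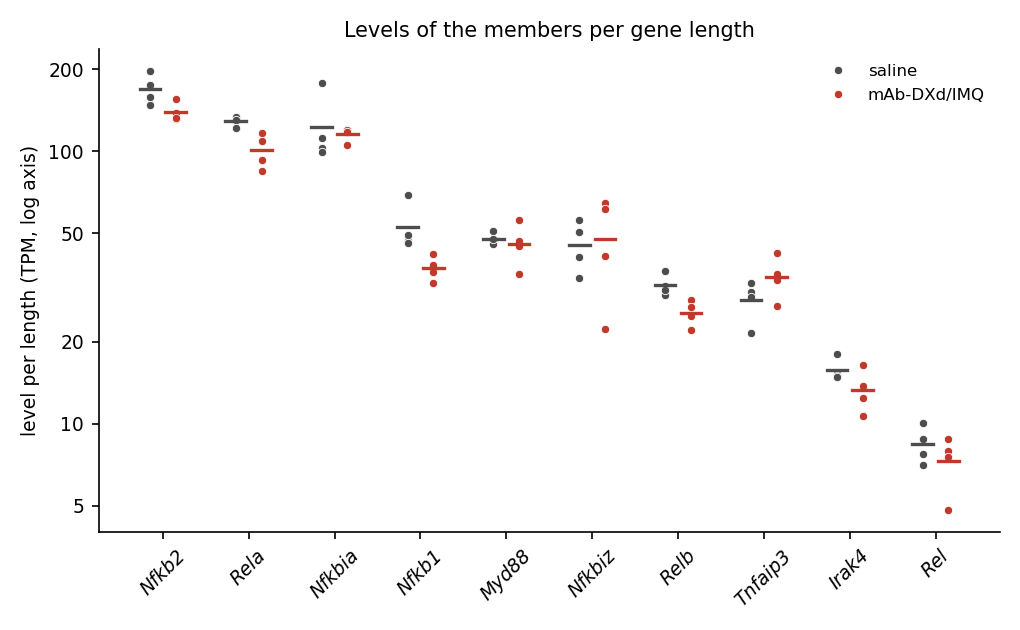
Level per length (TPM, log axis) of the 10 genes in order of their saline mean, with 1 point per tumor and a line at the mean of 4 saline (grey) and 4 mAb-DXd/IMQ tumors (red). With the deposited lengths, Nfkb2 leads in both groups, at 169 and 139 TPM, and Rel is the lowest, at 8.40 and 7.28 TPM.

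Overlap and shared sequence between genes bear on how single members can be read. The gene coordinates in the table equal those of GENCODE M21 on GRCm38 for 98.3% of shared identifiers, and whether counting used strand is not given in the sources used here, so reads from overlapping genes cannot be told apart. Myd88 (ENSMUSG00000032508, chr9:119335934-119341411, minus strand) overlaps Acaa1a on the opposite strand, whose counts were 184% of its own. Irak4 (ENSMUSG00000059883, chr15:94543643-94581815, plus strand) overlaps Twf1, at 249%, and Nfkb2 (ENSMUSG00000025225, chr19:46304737-46312090, plus strand) overlaps Psd, at 10.005%. The log2 fold change was -0.067 for Acaa1a, -0.077 for Twf1 and 0.28 for Psd (edgeR, adjusted p 0.809, 0.805 and 0.606). In the longest annotated transcripts, 94.7% of the windows of 100 bases of Myd88, 96.9% of those of Irak4 and 83.9% of those of Nfkb2 occurred in no other gene on either strand, and for the other 7 members it was 100%. For Nfkb1 (ENSMUSG00000028163, chr3:135584655-135691547, minus strand), Rela (ENSMUSG00000024927, chr19:5637483-5648130, plus strand) and Relb (ENSMUSG00000002983, chr7:19606217-19629438, minus strand), no window was shared.

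Gene length also moved with the groups. Across tested genes, which are not independent replicates, the log2 fold change and gene length had a Spearman's rho of -0.21. Nfkb1 has the greatest deposited length of the members, 12061 bases. Its longest annotated transcript has 4149 bases, so a corrected value for Nfkb1 holds for the deposited length only. With a correction for length in each tumor, rho was -0.033 and the log2 fold changes were -0.36 for Nfkb1, -0.31 for Nfkb2, -0.14 for Rel, -0.40 for Rela and -0.34 for Relb. Those of the other members were -0.15 for Nfkbia, 0.069 for Nfkbiz, 0.38 for Tnfaip3, -0.11 for Myd88 and -0.21 for Irak4. The adjusted p of Rela was then 0.0763 and that of Nfkb1 0.181 (edgeR), and 0 members passed the thresholds. At an unadjusted p under 0.05 there were 5 members with this correction, against 4 in the main fit. By the order of adjusted p, the added member was Tnfaip3 (adjusted p = 0.232, edgeR), on the higher side.

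NF-kB is known to act on some of its own genes, so the windows around the RefSeq start sites of the members (GRCm38.p6, 250 bases before to 50 after the start) were searched on both strands for the kappaB consensus, a motif of 10 letters. Of the 10 members, 7 matched a gene symbol with such a window, and 4 of these (Nfkb2, Rel, Nfkbia and Tnfaip3) held at least 1 match. Nfkb1, Relb and Nfkbiz had no such window and were not searched. Among all gene symbols with windows, 9.55% had a match, and 8.46% of all 32851 windows did. The stretches below show the matches upstream of the start for the 3 genes whose start site was within 1 base of the deposited gene's start. Capitals mark the bases covered by a match, overlapping matches are joined, and the sequences are written 5′ to 3′ on the gene's strand.
Nfkb2: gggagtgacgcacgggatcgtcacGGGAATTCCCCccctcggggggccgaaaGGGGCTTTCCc
Rel: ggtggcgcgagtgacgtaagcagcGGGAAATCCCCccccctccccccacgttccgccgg
Nfkbia: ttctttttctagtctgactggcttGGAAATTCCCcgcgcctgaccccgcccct
They lie at chr19:46304674-46304736 on the plus strand (Nfkb2), chr11:23771027-23771085 on the minus strand (Rel) and chr12:55492648-55492700 on the minus strand (Nfkbia). The first Nfkb2 match begins at position -39 from the start site and the Nfkbia match at position -29. Rela, Myd88 and Irak4 held no match in these windows, which says only that these letters are not there. The Myd88 window belongs to a start site 1393 bases from the start of the deposited gene. The bases before that gene start were therefore not searched. The log2 fold changes of the 4 genes with a match were -0.26, -0.21, -0.052 and 0.30 in the order named, so genes with matches were found on both sides of 0.

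Other genes of the pathway were read from 6 lists, with 118 of 120 genes tested. These lists were chosen with earlier results of these data known, so the counts below describe them and are not a test. By sign alone, 82 of the 118 had a negative log2 fold change and 36 a positive one. Over all 18511 tested genes the numbers were 8768 and 9743. Past the thresholds, 4 of the 118 were lower and 0 higher, against 0.519% and 0.546% of all tested genes. At an unadjusted p under 0.05 in the edgeR fit, 27 were lower and 7 higher, against 9.79% and 9.13% of tested genes. The groups did not overlap for 15 lower and 2 higher genes, against 7.1% and 5.97%. With both thresholds kept, DESeq2 called 11 of 118 pathway genes, against 4.25% of tested genes (787). Besides the 4 above and Tlr11 and Il12b below, these were Il1rl1 and Tnip3, at edgeR log2 fold changes of -1.58 and -0.68, and Cd40, Ccl2 and Plau on the higher side, at 0.83, 0.77 and 0.69. Their adjusted p in the edgeR fit was 0.105, 0.0763, 0.076, 0.0748 and 0.0591 in the order named. Cd40, Ccl2 and Plau also passed in edgeR without the filter, and Plau with upper quartile factors and with a filter at 1 CPM. On the lower side, Tnip3 passed in edgeR without saline tumor 1 and Il1rl1 without saline tumor 2. Cd40lg and Ccl20 had too few counts for testing.

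Among 10 tested ligands, 5 were lower and 5 higher, with a median log2 fold change of -0.0073. Il1b, the gene of the cytokine interleukin-1 beta, was counted at 135, 110.0, 151 and 177 CPM in saline tumors 1 to 4 and at 69.3, 52.2, 76.4 and 52.8 CPM in mAb-DXd/IMQ tumors 1 to 4. The groups were well apart, and Il1b fell by 1.19 on the log2 scale (SE 0.17, adjusted p = 0.0201, edgeR). Tnf, the gene of tumor necrosis factor, showed the largest positive value of the list, a log2 fold change of 0.79 (SE 0.34, adjusted p = 0.234, edgeR). Its highest value, 11.5 CPM in mAb-DXd/IMQ tumor 3, stood apart from 2.82 to 5.55 CPM in the other tumors, and without that tumor the log2 fold change was 0.38.

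Of the 26 receptors, 21 were lower and 5 higher, with 0 past the thresholds and a median of -0.23. With 1 tumor left out, edgeR called Tlr8 (without saline tumor 1) and Il1rl1 (without saline tumor 2). With all tumors, Tlr8 had overlapping groups and a log2 fold change of -0.92 (SE 0.34, adjusted p = 0.183, edgeR). Tlr7 had a log2 fold change of -0.20 (SE 0.38, adjusted p = 0.823, edgeR). The extreme members were both at low levels. Tlr11, an endosomal Toll-like receptor of mice, had 1.56 ± 0.795 CPM and 0.500 ± 0.189 CPM (SD, n = 4 each), a log2 fold change of -1.64 (SE 0.48, adjusted p = 0.106, edgeR), and DESeq2 called it lower (adjusted p = 0.0211). Tnfrsf13c, the BAFF receptor gene, had 0.257 ± 0.198 CPM and 0.467 ± 0.0687 CPM, a log2 fold change of 0.84 (SE 0.58, adjusted p = 0.469, edgeR). It was 1.41 without saline tumor 4 and 0.53 without saline tumor 3.

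In the adaptors of the MyD88 and TRIF branches, 10 of 12 genes were lower, with a median of -0.27. Tab3, which couples ubiquitin chains to the kinase TAK1, had 45.7, 37.3, 36.3 and 41.0 CPM in saline tumors 1 to 4 and 22.3, 29.8, 25.2 and 28.0 CPM in mAb-DXd/IMQ tumors 1 to 4. The groups did not overlap, and Tab3 fell by 0.61 on the log2 scale (SE 0.13, adjusted p = 0.0451, edgeR), close to both thresholds. Tab1, another TAK1 partner and the largest positive value of the list, had a log2 fold change of 0.13 (SE 0.12, adjusted p = 0.625, edgeR) that was 0.054 without saline tumor 3.

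The IKK complex, NIK and upstream ligases had the narrowest range, with 16 of 21 genes lower, 5 higher, 0 past the thresholds and a median of -0.10. Ikbkg, the regulatory IKK subunit, had a log2 fold change of -0.36 (SE 0.14, adjusted p = 0.204, edgeR), and it overlaps G6pdx on the opposite strand, whose counts were 159% of its own and whose log2 fold change was -0.66. Rbck1, a component of the linear ubiquitin ligase, had 0.20 (SE 0.12, adjusted p = 0.407, edgeR), and 0.13 without mAb-DXd/IMQ tumor 4.

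The other inhibitors and feedback genes had 13 of 21 genes lower, 8 higher and a median of -0.055. Rnf11, a partner in the ubiquitin-editing complex of Tnfaip3, stood at 293, 272, 241 and 309 CPM in saline tumors 1 to 4 and at 184, 171, 123 and 162 CPM in mAb-DXd/IMQ tumors 1 to 4. All mAb-DXd/IMQ tumors were below all saline tumors, and Rnf11 fell by 0.80 on the log2 scale (SE 0.14, adjusted p = 0.028, edgeR). Its partner gene Tnfaip3 had a value of the opposite sign, as given above, and the difference between the pair was not tested. Sigirr, a decoy-like receptor of the interleukin-1 family, had a log2 fold change of 0.46 (SE 0.16, adjusted p = 0.157, edgeR).

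Among NF-kB target genes, 17 of 28 were lower and 11 higher, with a median of -0.27 and the widest range of the lists, from -1.69 to 0.82. Saa3, an acute phase gene, had 27.5, 28.1, 37.6 and 29.8 CPM in saline tumors 1 to 4 and 13.8, 13.4, 18.1 and 13.2 CPM in mAb-DXd/IMQ tumors 1 to 4. In each group tumor 3 was the highest and the groups were apart, and Saa3 fell by 1.07 on the log2 scale (SE 0.15, adjusted p = 0.0201, edgeR). Il12b, the gene of the shared interleukin-12 and interleukin-23 subunit, had 1.90 ± 1.24 CPM and 0.584 ± 0.127 CPM (SD, n = 4 each), a log2 fold change of -1.69 (SE 0.52, adjusted p = 0.117, edgeR). DESeq2 called Il12b lower (adjusted p = 0.0236), as did edgeR without saline tumor 1 (adjusted p = 0.0456). Mmp9, a matrix metalloproteinase gene, had 272 ± 146 CPM and 479 ± 226 CPM, a log2 fold change of 0.82 (SE 0.40, adjusted p = 0.298, edgeR) that was 0.48 without mAb-DXd/IMQ tumor 3.

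**Figure D4:**
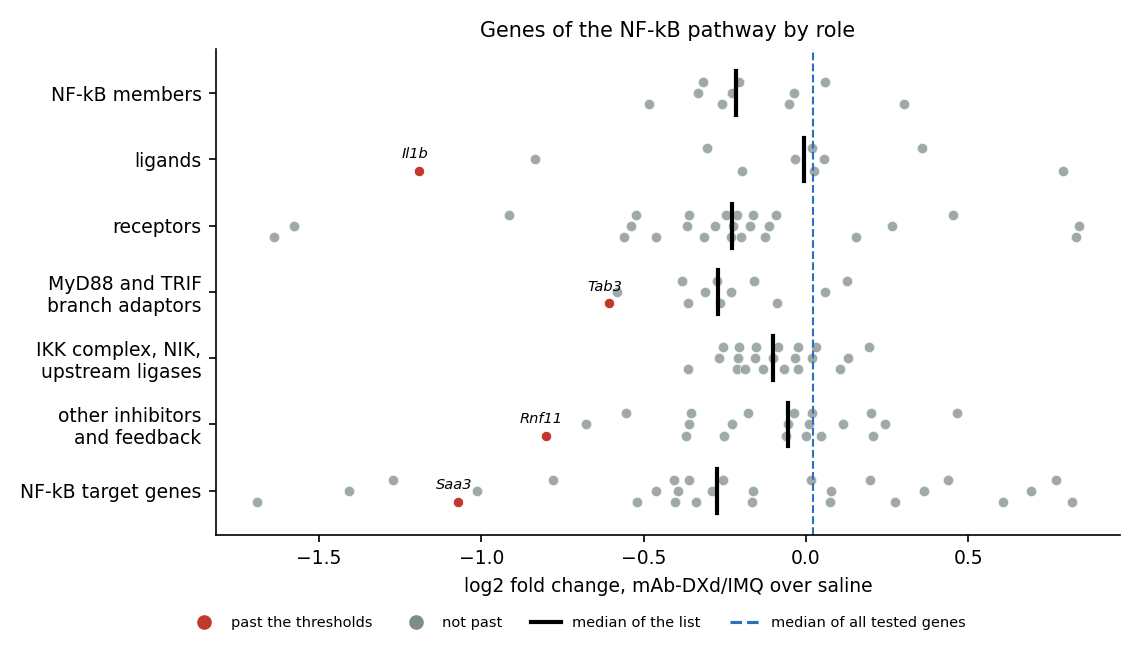
Log2 fold change of each tested gene of the 10 members and of 6 pathway lists, 1 point per gene, with the median of each list (black) and of all tested genes (dashed, 0.022). The 4 genes past the thresholds (red, named) are all lower, the IKK list is the narrowest, and the target genes reach from -1.69 to 0.82.

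These calls were made with 4 tumors in each group, and they did not hold in every fit that left out 1 tumor. Il1b and Saa3 each passed the thresholds in 5 of the 8 fits that left out 1 tumor, Rnf11 in 3 and Tab3 in 0. With a block for the tumor's number, which does not pair the tumors because each came from a different mouse, 14 genes passed in the whole table, among them Saa3 but not Il1b, Rnf11 or Tab3. Without saline tumor 3, saline tumor 4 or mAb-DXd/IMQ tumor 4, none of the pathway genes passed, and edgeR then called 10, 11 and 12 genes in the whole table in place of 197. The table count was 111 without saline tumor 2, 76 without mAb-DXd/IMQ tumor 2 and 88 without mAb-DXd/IMQ tumor 3. When 1 tumor was left out, the log2 fold changes ranged from -1.30 to -1.07 for Il1b, from -1.19 to -0.96 for Saa3, from -0.88 to -0.69 for Rnf11 and from -0.67 to -0.54 for Tab3, which crosses the limit of 0.58.

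In bulk tumors, fewer cells of a type and less RNA per cell cannot be told apart, so levels of marker lists are given beside these values. Genes within these lists are ordered by CPM, without regard to gene length. Counts of lower genes within a list stand beside 8768 lower genes among all 18511 tested. In the tumor epithelium list Krt18 was the most counted gene over all 8 tumors at 678 CPM, with Krt8 slightly above it in saline tumors. The list had a summed level of 2210 ± 231 CPM in saline and 2612 ± 756 CPM in mAb-DXd/IMQ tumors (SD, n = 4 each). The difference of 402 CPM was 58.5 CPM without mAb-DXd/IMQ tumor 1. Of its 6 genes 5 were tested, and Cldn3 came to 3 counts over the saline group and 15 over the treated group. Of the receptors absent by definition from TNBC, Pgr was the least counted, though above the floor, at 0.367 ± 0.281 and 0.578 ± 0.191 CPM, while Esr1 had 19.1 ± 1.14 and 15.7 ± 1.597 CPM and Erbb2 102 ± 19.7 and 101 ± 14.1 CPM (SD, n = 4 each).

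The 4 pan-leukocyte genes summed to 489, 924, 673.5 and 726 CPM in saline tumors 1 to 4 and to 629, 556, 670.5 and 497 CPM in mAb-DXd/IMQ tumors 1 to 4, with Laptm5 the most counted and 4 of 4 genes lower (exact permutation test, p = 0.314). The 8 macrophage genes, led by Lyz2, summed to 1176, 6217, 2767 and 3400.4 CPM and to 3528, 2555, 3224 and 2419 CPM in the same order, and 8 of 8 genes were lower (exact permutation test, p = 0.714), but the difference of -459 CPM became 483 CPM without saline tumor 2. Both lists had their lowest saline value in tumor 1, the saline tumor with the highest Nfkb1, Nfkb2, Relb, Nfkbia, Nfkbiz, Tnfaip3 and Myd88. The T cell, NK cell and dendritic cell lists below were also lowest there among saline tumors. The neutrophil list went the other way, at 227 CPM in saline tumor 1 against 86.1 to 127 CPM in the other saline tumors. The 7 neutrophil genes, led by S100a9 in saline and Csf3r in mAb-DXd/IMQ tumors, summed to 227, 86.1, 93.3 and 127 CPM in saline tumors and to 34.8, 49.98, 53.2 and 70.3 CPM in mAb-DXd/IMQ tumors, which placed all mAb-DXd/IMQ tumors below all saline tumors. The p of the exact permutation test was 0.0286, the smallest that 4 against 4 tumors can give, and 0.2 after adjustment over 14 marker lists. The difference of -81.3 CPM was -50.02 CPM without saline tumor 1. Of the 6 neutrophil genes tested, 5 were lower and 1 higher, Csf3r passed the thresholds, and the defining marker Ly6g came to 26 counts over the saline group and 31 over the treated group.

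The 7 T cell genes, led by Lck, summed to 40.2, 66.5, 60.2 and 54.1 CPM and to 41.5, 36.2, 20.6 and 31.7 CPM in tumors 1 to 4 of each group, with 7 of 7 genes lower and Cd2 past the thresholds (exact permutation test, p = 0.0571). The dendritic cell list (5 of 5 genes lower, led by Zbtb46) had 32.4 ± 10.45 and 21.8 ± 1.35 CPM, and the NK cell list (2 of 4 lower, led by Klrk1) 35.2 ± 6.44 and 30.3 ± 3.11 CPM (SD, n = 4 each; exact permutation tests, p = 0.0857 and 0.257). Fibroblast (led by Col1a1), endothelial (Pecam1), epidermis (Krt10), skeletal muscle (Acta1) and adipocyte (Adipoq) lists gave exact permutation p of 1, 0.229, 0.771, 0.657 and 0.457. Saline means of these 5 lists were 4092, 127, 9.85, 218 and 1.67 CPM, and mAb-DXd/IMQ means 4089, 158, 18.5, 175 and 1.09 CPM, in the same order. The epidermis difference of 8.62 CPM rested on mAb-DXd/IMQ tumor 2 (52.6 CPM) and was -2.74 CPM without it. Those of fibroblasts and skeletal muscle also turned with 1 tumor left out, as the ranges at the end show. After adjustment over the 14 lists, 0 had a p under 0.05. Sums are dominated by the most counted genes of a list. With the mean of log2 CPM over a list's genes instead, the p of the exact permutation test was 0.0571 for neutrophils and 0.0286 for T cells, at differences of -1.01 and -0.98 and an adjusted p of 0.267 each over 14 lists, and the NK cell difference was positive (0.062, p = 0.8). The part of these cell types in the values of the NF-kB genes and of Il1b, Saa3, Tab3 and Rnf11 was not tested.

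**Figure D5:**
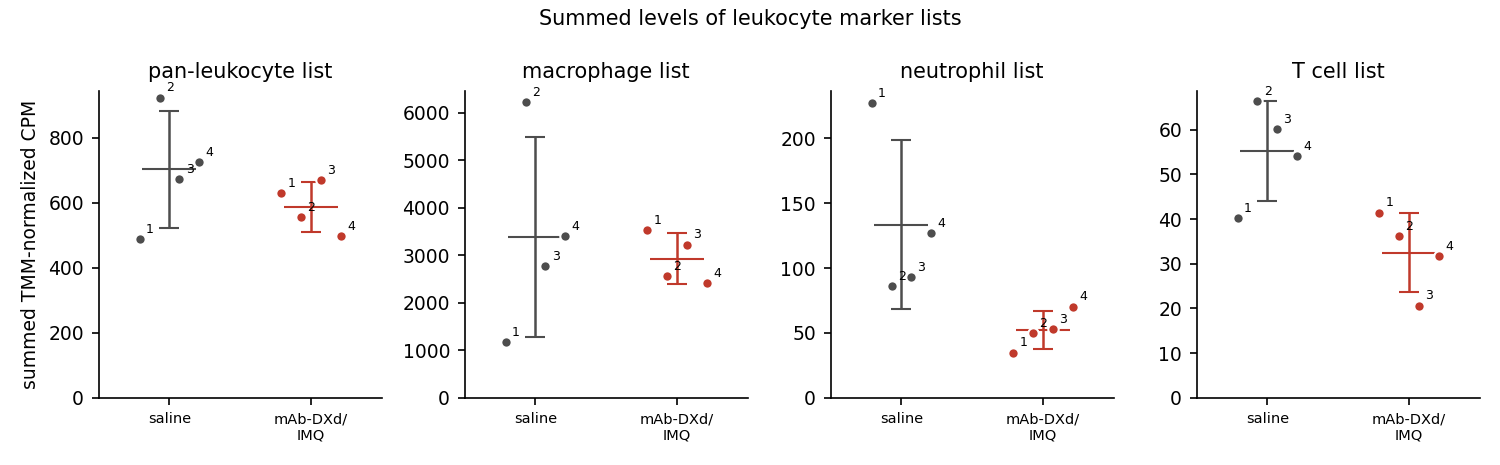
Summed TMM-normalized CPM of 4 marker lists in 4 saline (grey) and 4 mAb-DXd/IMQ tumors (red), with the tumor's number beside each point and the mean ± SD as bars. The neutrophil sums do not overlap between groups, and the macrophage sums of saline tumors spread from 1176 to 6217 CPM.

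For the 3 members that varied most over the 8 tumors, the genes with the most similar profile were looked up across the table, as the root mean square difference between mean-centred log2 CPM over 8 tumors. Nfkbiz was closest to Fam227a (0.087) and Trim39 (0.12). Nfkb1 was closest to Map3k2 (0.076) and Myo1e (0.076), at log2 fold changes of -0.42 and -0.53 (edgeR, adjusted p 0.0781 and 0.0591). Tnfaip3 was closest to Epha1 (0.088) and Cks2 (0.098), with log2 fold changes of 0.35 and 0.34 (adjusted p of 0.175 and 0.21, edgeR). Such genes were picked for likeness over the same 8 tumors, so log2 fold changes near that of the member follow from the choice. Among the members themselves, the most similar pair was Nfkb2 and Relb (0.085), both of the alternative route, followed by Rela and Relb (0.13). Genes outside the members lay closer to each of the pair, at 0.047 for Nfkb2 and 0.054 for Relb. Both also varied little, with an SD of 0.17 and 0.18 of log2 CPM, and this measure is small between genes that vary little.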

How the data were processed

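RNA was isolated with an RNeasy kit and sequenced by Novogene on the HiSeq X platform. The authors deposited raw counts for each gene and tumor, together with gene lengths in bases. The submitters' processing notes name HISAT2, HISAT, TopHat2 and mm39, whereas the deposited gene coordinates equal those of GRCm38. The counting program and strand setting are not given in the sources used here.

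Groups were taken from the sample titles. Genes were kept by filterByExpr (minimum count 10, minimum total count 15) and compared with edgeR 4.0.16's quasi-likelihood test on TMM factors, without covariates, in R 4.3.3, with Benjamini-Hochberg adjustment over all tested genes. The thresholds were those of the study's methods. Standard errors and 95% intervals were approximated from the coefficient, its F statistic and the total degrees of freedom. The biological coefficient of variation was 0.273. TPM were computed from counts and deposited lengths over all genes. Log2 CPM used a prior count of 2. For marker sums and total counts, the exact permutation test was two-sided. Of the 14 marker lists, 1 is not reported here. No pair of libraries from the same group agreed within sampling noise, pairs between groups were not compared in this way, and the labels give no sequencing batch.

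The members and lists were chosen with earlier results of these data known. The named genes were the members, from each pathway list all genes past the thresholds and those with the largest rise and fall, and, for the 3 most variable members, the 2 genes with the most similar profile. Genes that overlap named genes, markers, and genes called by DESeq2 beyond these are named after their values were seen. Alternatives were DESeq2 1.42.0, limma 3.58.1, other scalings and filters, no fold change limit, a replicate block, a length correction (spline with 5 degrees of freedom) and leaving out each tumor. DESeq2 without the fold change limit was added after the data were seen. The fits were also run on simulated data, with outcomes that are not given here. Figures were drawn with Python 3.11.15 and matplotlib 3.10.9.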

Additional observations from a re-analysis of the deposited data

Results flagged for a closer look

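In 76 groups of 4 values, the gap between the highest or lowest tumor and the nearest other one was compared with the range of the group. In 8 groups 1 tumor lay far from the rest by Dixon's test, against 3.8 expected by chance at 1 in 20 groups. Among the members, the gap was 0.837 of the range for Nfkb1 in saline tumor 1 (283 CPM, others 197 to 211), 0.89 for Irak4 in saline tumor 2 (32.2 CPM, others 25.9 to 26.6), 0.889 for Rel in mAb-DXd/IMQ tumor 1 (14.5 CPM, others 20.2 to 20.9) and 0.847 for Rela in mAb-DXd/IMQ tumor 2 (112 CPM, others 91.0 to 94.2). Among pathway genes it was 0.932 for Ikbkg in mAb-DXd/IMQ tumor 3 (37.5 CPM, others 50.5 to 51.5), 0.923 for Tnfrsf13c in mAb-DXd/IMQ tumor 2 (0.364 CPM, others 0.495 to 0.506) and 0.866 for Saa3 in mAb-DXd/IMQ tumor 3 (18.1 CPM, others 13.2 to 13.8). The summed epidermis markers gave 0.927 in mAb-DXd/IMQ tumor 2 (52.6 CPM, others 5.74 to 9.16).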

How the results depend on the processing

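Of 180 member values in other fits, 173 kept their sign, and all 3 member calls came from DESeq2 without a fold change limit, which was chosen after seeing the data and counted 3 members, 16 pathway genes and 1386 genes. Genes past the thresholds (197, of which pathway genes 4) became 358 (7) without a filter and 787 (11) with DESeq2. Upper quartile factors gave 145 higher and 73 lower genes (66.5% higher against 51.3%). With 1 tumor left out the counts ranged from 10 to 203 genes and from 0 to 6 pathway genes. With the replicate block they were 14 (1), and 17 (2) with the length correction besides. The numbers do not pair the tumors: correlations between same-numbered tumors were -0.17, -0.055, 0.079 and -0.067, and 1 of 4 was closest to its own number. Signs turned for Myd88 with upper quartile factors (0.0081) and for Nfkbiz with limma-voom (-0.0087). With 1 tumor left out, the log2 fold change ranged from -0.14 to 0.15 for Nfkbia, from -0.11 to 0.26 for Nfkbiz, from -0.091 to 0.070 for Myd88, from -0.27 to -0.096 for Rel, from -0.28 to -0.13 for Irak4, from 0.38 to 1.01 for Tnf, from 0.48 to 1.15 for Mmp9, from 0.53 to 1.41 for Tnfrsf13c, from 0.19 to 0.40 for Tnfaip3, from 0.054 to 0.20 for Tab1 and from 0.13 to 0.28 for Rbck1. Differences of marker sums turned too. With 1 tumor left out they ranged from -1197 to 483 CPM for macrophages, from -730.4 to 571 CPM for fibroblasts (111 CPM by library size only), from -14.1 to 2.05 CPM for hormone and HER2 receptors, from -2.74 to 12.9 CPM for epidermis and from -104 to 8.48 CPM for skeletal muscle. Without a turn, they ranged from -186 to -41.3 CPM for pan-leukocyte genes, from 12.3 to 46.9 CPM for endothelium, from -1.13 to -0.176 CPM for adipocytes, from -14.3 to -6.45 CPM for dendritic cells, from -7.16 to -2.73 CPM for NK cells, from -27.8 to -18.8 CPM for T cells, from -97.1 to -50.02 CPM for neutrophils and from 58.5 to 592 CPM for tumor epithelium. The cause was not tested.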
